A study of Rattus norvegicus with 26 samples.

Results

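This report describes the difference between soleus muscles of sedentary rats of 2 selectively bred lines, the high-capacity runners (HCR) and the low-capacity runners (LCR). It covers 16 of the 26 libraries of the series, the 8 sedentary HCR and the 8 sedentary LCR libraries, chosen by the group named in each sample's description, and all 10064 genes with enough counts to be tested. The animals were aged females of generation 44 of the selection, kept without a wheel. The series also holds 5 running HCR and 5 running LCR libraries from pair-housed females that had a wheel for more than 5 months. These are used only for side values and as part of the shared fit of all 26 libraries. The labels name no litter, cage, date or batch, and each library was taken as 1 rat, so the p-values measure the spread between these libraries. Any difference of litter, cage or batch between the sedentary lines cannot be told apart from line.

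The lines descend from a common outbred stock and were separated by breeding for how far untrained rats run on a treadmill. HCR rats are known for high aerobic capacity and reliance on fat as fuel, and LCR rats for low aerobic capacity and metabolic disease with age. Soleus is a postural calf muscle made mainly of slow, mitochondria-rich fibres that burn fatty acids, which enter mitochondria as carnitine esters and pass through beta-oxidation, the tricarboxylic acid (TCA) cycle and the respiratory chain. Closed lines also drift apart at loci unrelated to the trait, so a transcript that differs between them need not bear on running.

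Libraries were read from transcript 3' ends, and levels are given as CPM, counts scaled to a common library size with trimmed mean of M values (TMM) factors. Total counts ran from 1499357 to 2523942 in HCR and from 1489710 to 2457449 in LCR, so a level of 1 CPM rests on about 2 counts per library. The muscle matched its label in both lines. The slow myosin heavy chain Myh7 had a lowest, median and highest level of 6536, 9723 and 13979 CPM in HCR, against 8632, 11505 and 12492 CPM in LCR, and the 19 slow-fibre sarcomere genes tested had 0 members past the threshold. Along the first principal component of the 16 libraries, which held 16.8% of the variance, 7 of 8 HCR libraries lay above 0 and 7 of 8 LCR libraries below 0. The exceptions were HCR replicate 4 and LCR replicate 5, and LCR replicate 5 stood within the HCR range.

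Across the 10064 genes, 274 differed between the lines at an adjusted p under 0.05 (edgeR quasi-likelihood test, Benjamini-Hochberg adjustment), which is 2.72% of genes tested. Of these, 158 were higher in HCR (1.57%) and 116 were lower (1.15%), and a further view at an unadjusted p under 0.05 gave 1603 genes. Most differences were modest: the median size among called genes was 0.68 on the log2 scale, 109 lay under 1.5-fold, and 73 reached 2-fold, 45 higher and 28 lower in HCR. The 8 HCR and 8 LCR values did not overlap at all in 61 genes, which is 0.606% of genes tested, and 54 of these were called. The count rested in part on 1 library, since leaving out LCR replicate 7 gave 182 calls, 181 of them shared with the full fit, while leaving out LCR replicate 5 gave 347. Refits without 1 library left out each of the 26 libraries in turn. The runners among them enter the sedentary comparison only through scaling, filtering and the shared spread, so refits without a runner test a call less. Long non-coding RNAs were called more often than protein-coding genes, 11 of 188 (5.85%) against 249 of 9591 (2.60%), a difference that was not tested.

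**Figure D1:**
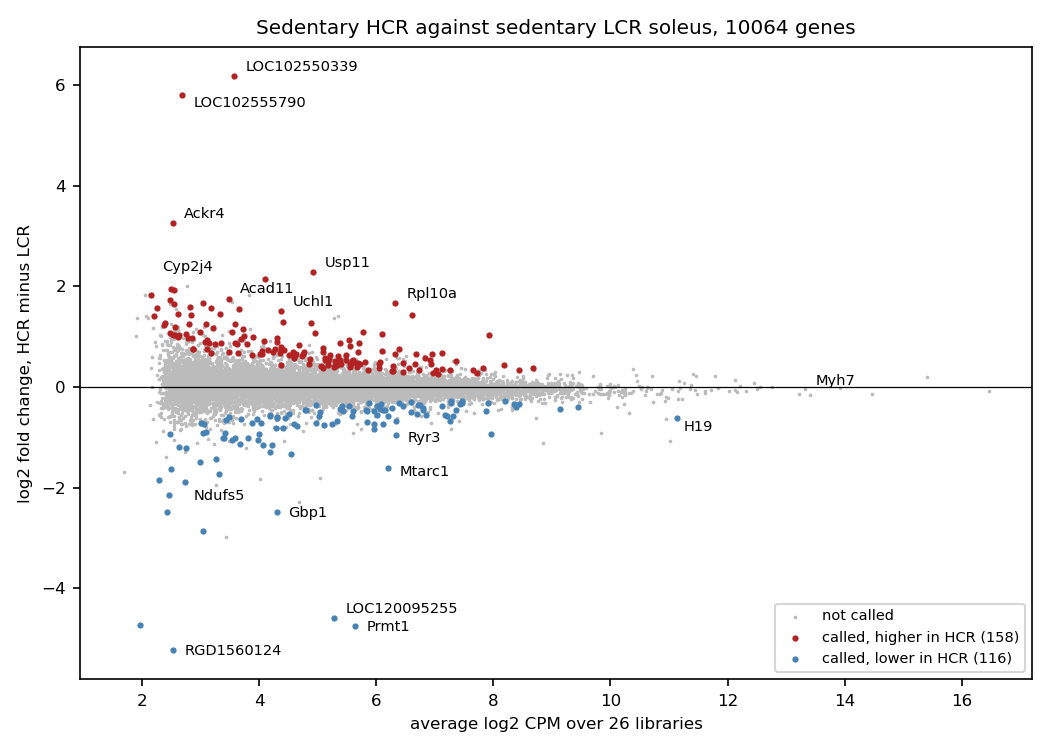
Each point is a gene, with its average log2 CPM on the horizontal axis and its log2 fold change (HCR minus LCR) on the vertical axis, red for the 158 genes called higher and blue for the 116 called lower in HCR. The largest differences, LOC102550339 at 6.18 and RGD1560124 at -5.23, lie among genes of low level, and Myh7 at the right lies near 0.

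Ackr4 and Acad11 were among the genes most raised in HCR, and they are neighbours in the genome. Ackr4 encodes an atypical chemokine receptor that takes up lymphoid chemokines and degrades them. Its lowest, median and highest levels were 6.82, 9.86 and 11.1 CPM in HCR, against 0, 0.925 and 2.06 CPM in LCR. Every HCR library lay above every LCR library, and the log2 fold change was 3.25 (SE 0.39, adjusted p = 1.25e-06, edgeR). Acad11, an acyl-CoA dehydrogenase that handles long-chain and hydroxylated acyl groups, had 11.0, 15.3 and 24.98 CPM in HCR, against 3.09, 4.25 and 7.33 CPM in LCR. Again no library overlapped, and the log2 fold change was 1.74 (SE 0.23, adjusted p = 1.14e-05).

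In the RefSeq annotation of assembly GRCr8, Ackr4 lies on the minus strand within the span of Acad11, which is on the plus strand. The authors' counts were made on mRatBN7.2, and no source used here says whether counting used strand, so reads of these overlapping genes may not be fully separable. Among the running rats, HCR replicate 4 was the lowest HCR library for both genes, at 1.64 CPM of Ackr4 and 5.75 CPM of Acad11, while the other 4 HCR runners had at least 5.38 and 14.4 CPM. The start regions of both genes are printed here because the genes moved together from opposite strands, and that of Ndufs5, a gene lower in HCR, is shown as a comparison. Each runs from 250 bases before to 50 bases after the RefSeq start, at chr8:113559962-113560261 (plus strand) for Acad11, chr8:113599713-113600012 (minus strand) for Ackr4 and chr5:141264353-141264652 (minus strand) for Ndufs5 in GRCr8, each written 5′ to 3′ along its gene. Capitals mark a match to AAGGTCA, the half-site bound by estrogen-related receptors, nuclear receptors that control oxidative genes, searched on both strands.
Acad11: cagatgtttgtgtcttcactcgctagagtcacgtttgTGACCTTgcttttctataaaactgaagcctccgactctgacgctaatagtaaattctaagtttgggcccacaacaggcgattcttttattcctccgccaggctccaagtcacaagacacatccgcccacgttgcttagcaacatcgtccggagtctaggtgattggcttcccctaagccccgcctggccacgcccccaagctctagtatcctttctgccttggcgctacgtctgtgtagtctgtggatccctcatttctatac
Ackr4: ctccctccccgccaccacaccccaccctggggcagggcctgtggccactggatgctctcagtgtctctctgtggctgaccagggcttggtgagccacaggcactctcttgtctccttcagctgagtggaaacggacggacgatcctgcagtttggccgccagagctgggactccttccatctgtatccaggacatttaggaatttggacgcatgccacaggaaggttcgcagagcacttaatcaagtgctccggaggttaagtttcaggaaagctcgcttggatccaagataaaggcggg
Ndufs5: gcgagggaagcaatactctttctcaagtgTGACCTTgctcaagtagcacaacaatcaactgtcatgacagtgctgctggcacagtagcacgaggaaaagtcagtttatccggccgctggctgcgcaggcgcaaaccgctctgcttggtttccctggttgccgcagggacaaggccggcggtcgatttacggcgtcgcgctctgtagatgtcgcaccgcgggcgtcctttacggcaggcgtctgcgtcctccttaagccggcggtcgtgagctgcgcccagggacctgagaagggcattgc
Acad11 and Ndufs5 each held 1 match, on the opposite strand to the gene and 213 and 221 bases before the start, and Ackr4 held 0. The windows of Cyp2j4 and Prmt1, also searched and not printed, held 0. The motif occurs in 4.37% of the 27457 promoter windows of this length in the same RefSeq table. Of the 31 fatty acid genes tested that had a window, 2 held it, Acad11 and Hadhb. Acad11 was higher in HCR and Ndufs5 was lower, and a part of the motif in either difference was not tested.

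In HCR, 5 of 37 fatty acid uptake and oxidation genes tested rose and 0 fell, against 1.57% and 1.15% of all genes, and the list's median log2 fold change was 0.07, beside 0.0067 for all genes. Besides Acad11, the risers were Acad9, Eci2, Cpt1a and Acsl1. Cpt1a, the liver-type carnitine palmitoyltransferase that admits fatty acids to mitochondria, had 22.2, 34.5 and 41.2 CPM as lowest, median and highest in HCR, against 11.5, 21.9 and 27.3 CPM in LCR (log2 fold change 0.62, SE 0.18, adjusted p = 0.0458, edgeR). The ranges overlapped. Its muscle-type counterpart Cpt1b, at a median of 429 CPM in HCR and 443 CPM in LCR, differed by -0.04 on the log2 scale (SE 0.10, adjusted p = 0.906).

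Eci2, an isomerase needed to oxidise unsaturated fatty acids, had 14.9, 25.6 and 30.7 CPM in HCR, against 8.15, 17.0 and 20.2 CPM in LCR (log2 fold change 0.74, SE 0.18, adjusted p = 0.0146, edgeR). Acsl1, which activates long-chain fatty acids, had 202, 242 and 337 CPM in HCR, against 149, 197 and 211 CPM in LCR (0.37, SE 0.09, adjusted p = 0.0196). The ranges overlapped for both genes. Each kept its call in 11 of 12 other settings, and in refits without 1 library Eci2 kept it in 26 of 26 and Acsl1 in 25. Acad9, which acts both as a dehydrogenase and in the assembly of complex I, spread widely in HCR, at 29.4, 87.7 and 207 CPM, against 36.0, 45.2 and 57.5 CPM in LCR (1.05, SE 0.28, adjusted p = 0.0398). Of the HCR libraries, 6 had 72.4 CPM or more of Acad9, above all LCR libraries, while HCR replicates 1 and 7 had 41.0 and 29.4 CPM. The calls of Acad9 and Cpt1a, both near the threshold, were not followed in other settings or refits, so their stability was not tested.

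The abundant dehydrogenases of beta-oxidation had values near 0. Of 9 genes of the acyl-CoA dehydrogenase family tested, 3 rose in HCR (33.3%, beside 1.57% of all genes), Acad11, Acad9 and the branched-chain enzyme Acadsb. This family was grouped by symbol and is not 1 of the 39 lists. Acad11 and Acad9 are already counted among the fatty acid genes above. The medium-chain enzyme Acadm averaged 435 ± 81.9 CPM in HCR and 404 ± 62.8 CPM in LCR (SD, n = 8 each; log2 fold change 0.11, adjusted p = 0.736, edgeR), and the long-chain enzyme Acadl 628 ± 127 CPM in HCR and 649 ± 113 CPM in LCR (-0.05, adjusted p = 0.902). Summed over the 37 genes, fatty acid transcripts had lowest, median and highest values of 4599, 6157 and 8043 CPM in HCR, against 3758, 6064 and 6612 CPM in LCR, so the sums overlapped.

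**Figure D2:**
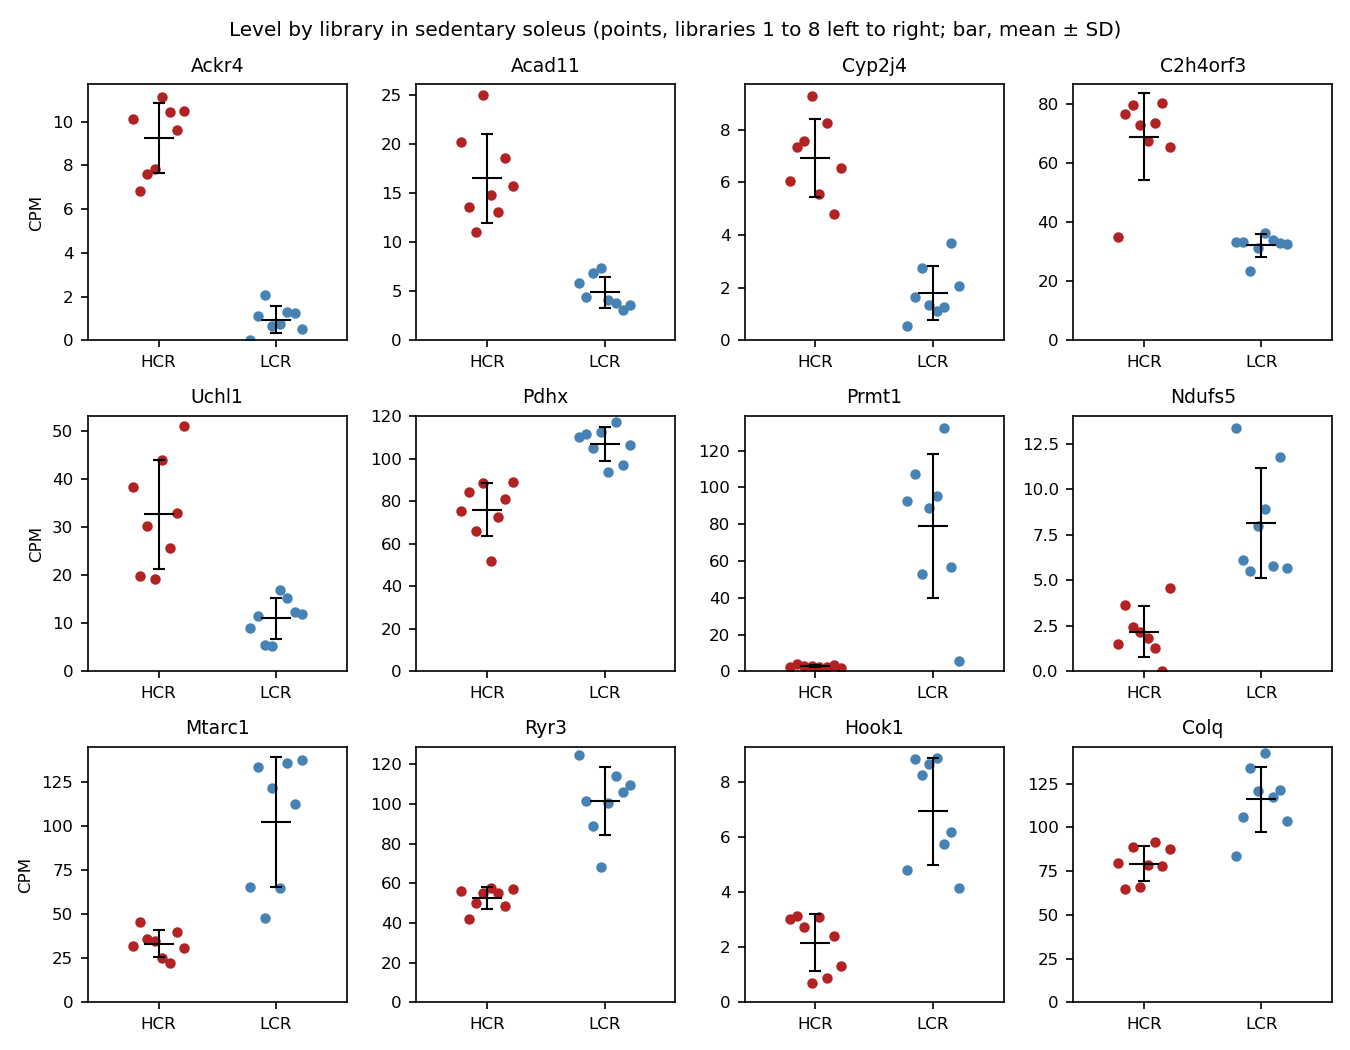
CPM of 12 genes in each of 8 HCR (red, left) and 8 LCR (blue, right) libraries on linear axes from 0, with mean ± SD in black. Ackr4, Acad11, Cyp2j4 and Uchl1 show HCR libraries wholly above LCR, Prmt1, Pdhx, Ndufs5, Mtarc1, Ryr3 and Hook1 wholly below, 1 HCR library within the LCR range in C2h4orf3, and overlapping ranges in Colq.

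Downstream of beta-oxidation, single genes of the TCA cycle and respiratory chain moved in either direction. Fumarate hydratase, Fh, a TCA cycle enzyme, had 108, 158 and 183 CPM in HCR, against 64.5, 98.3 and 118 CPM in LCR (log2 fold change 0.65, SE 0.12, adjusted p = 0.00138, edgeR). Pdhx, the component that anchors dihydrolipoamide dehydrogenase in the pyruvate dehydrogenase complex, had 52.0, 78.2 and 89.0 CPM in HCR, against 93.8, 109 and 117 CPM in LCR, with no overlap (-0.49, SE 0.10, adjusted p = 0.00259). These were the 2 called members of 32 pyruvate and TCA genes (6.25%, beside 2.72% of all genes). The transcript of citrate synthase, Cs, an enzyme used as an index of mitochondrial content, averaged 199 ± 14.1 CPM in HCR and 180 ± 18.5 CPM in LCR. It did not pass (0.14, adjusted p = 0.336), and mitochondrial content itself was not measured.

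The accessory complex I subunit Ndufs5 had 0, 2.00 and 4.58 CPM in HCR, against 5.503, 7.04 and 13.4 CPM in LCR (log2 fold change -1.89, SE 0.35, adjusted p = 0.00124, edgeR). All HCR libraries lay below all LCR libraries, at low counts in both lines. It was the only called member of 37 complex I subunits, whose median was -0.07. None of 38 subunits of complexes III, IV and V and none of 13 mitochondrially encoded mRNAs passed, with medians of -0.04 and 0.07. Of 27 regulators of mitochondrial biogenesis and dynamics, the coactivator Ppargc1b alone passed, at 78.6, 94.6 and 105 CPM in HCR, against 91.6, 130 and 154 CPM in LCR (-0.46, SE 0.10, adjusted p = 0.00477). Its relative Ppargc1a, the best known inducer of mitochondrial genes in exercised muscle, stood at 0.18 (SE 0.15, adjusted p = 0.621). Of 27 glycolysis and glycogen genes, the muscle enolase Eno3 fell in HCR, at 373, 398 and 573 CPM, against 372, 576 and 773 CPM in LCR (-0.44, SE 0.10, adjusted p = 0.0149), and 0 rose.

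Of 24 genes of branched-chain and other amino acid breakdown tested, 2 (8.33%) rose and 0 fell, beside 1.57% and 1.15% of all genes. Acadsb, which acts in isoleucine breakdown, had 25.5, 42.5 and 56.7 CPM in HCR, against 14.8, 18.1 and 28.5 CPM in LCR (log2 fold change 1.08, SE 0.20, adjusted p = 0.00253, edgeR). One HCR library fell within the LCR range. Bckdhb, a subunit of the branched-chain ketoacid dehydrogenase, had 132, 149 and 202 CPM in HCR, against 96.0, 131 and 151 CPM in LCR (0.33, SE 0.09, adjusted p = 0.0478). This call held in 3 of 12 other settings and 6 of 26 refits without 1 library. Ppm1k, the phosphatase that activates the same complex, was named after its value was seen and stood at 0.65 (SE 0.13, adjusted p = 0.00413).

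Among enzymes of lipid mediators and detoxification, the changes were opposed. Cyp2j4, a cytochrome P450 that forms epoxides from arachidonic acid, had 4.80, 6.94 and 9.28 CPM in HCR, against 0.535, 1.497 and 3.71 CPM in LCR, with no overlap (log2 fold change 1.95, SE 0.29, adjusted p = 9.09e-05, edgeR). Mtarc1, a molybdenum enzyme of the outer mitochondrial membrane that reduces N-hydroxylated compounds, had 22.6, 33.4 and 45.6 CPM in HCR, against 48.2, 117 and 138 CPM in LCR (-1.61, SE 0.28, adjusted p = 0.00209). No library overlapped, and the LCR libraries lay in a set of 5 from 113 to 138 CPM and a set of 3 from 48.2 to 65.3 CPM. Aldh2, the mitochondrial aldehyde dehydrogenase, had 97.9, 121 and 131 CPM in HCR, against 126, 171 and 218 CPM in LCR (-0.57, SE 0.10, adjusted p = 0.000503). Of 35 antioxidant and detoxification genes, 8.57% were called, beside 2.72% of all genes. The glutathione transferase Gstm2 (0.95) and the heme oxygenase Hmox1 (0.73) rose and the quinone reductase Nqo1 (-0.74) fell. The call of Gstm2, with an adjusted p of 0.0459, held in 8 of 12 other settings and 8 of 26 refits without 1 library. Hmox1 was called in 16 of 26 such refits, and Nqo1 in 9 of 12 settings and 18 of 26 refits. Every refit that lost either call left out a sedentary library. Ptgr2, a prostaglandin reductase, had 43.2, 55.7 and 62.8 CPM in HCR, against 64.5, 82.4 and 104 CPM in LCR, with no overlap (-0.58, SE 0.10, adjusted p = 0.000422).

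The glycerol channel Aqp7 was the 1 called member of 22 lipid droplet genes, at 2.62, 8.85 and 12.1 CPM in HCR, against 1.11, 3.66 and 5.18 CPM in LCR (log2 fold change 1.24, SE 0.35, adjusted p = 0.0465, edgeR). Its call held in 7 of 11 other settings and in 11 of 26 refits without 1 library. Markers of adipocytes, cells that also express this channel, had 0 of 10 members called, a median of 0.31, and sums from 360 to 591 CPM in HCR, against 294 to 516 CPM in LCR. Their part in the Aqp7 value was not tested.

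Genes that modify or remove proteins held some of the largest differences. Prmt1, which puts methyl groups on arginines, had 1.96, 2.69 and 4.20 CPM in HCR, against 5.70, 90.6 and 133 CPM in LCR (log2 fold change -4.75, SE 0.68, adjusted p = 0.000264, edgeR). The lines did not overlap, yet LCR replicate 8, at 5.70 CPM, stood near the HCR libraries and the other 7 LCR libraries lay between 53.0 and 133 CPM. Among the runners, HCR replicate 4 had 75.5 CPM, within the range of the LCR runners (64.9 to 152 CPM), and the other 4 HCR runners had at most 5.14 CPM. Prmt1 was the 1 called member of 7 arginine methyltransferases tested. Prmt5 stood at -0.13 (adjusted p = 0.577) and Carm1 at 0.07 (adjusted p = 0.887). Ap2a1, an adaptor subunit of clathrin coats and the next tested gene beside Prmt1, also fell, at 14.2 ± 2.38 CPM in HCR and 21.4 ± 3.26 CPM in LCR (SD, n = 8 each; -0.59, SE 0.15, adjusted p = 0.0227).

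Usp11, a nuclear ubiquitin protease, had 41.4, 46.7 and 61.9 CPM in HCR, against 1.86, 2.99 and 46.6 CPM in LCR (log2 fold change 2.27, SE 0.51, adjusted p = 0.0155, edgeR). LCR replicates 1 and 4 had 20.9 and 46.6 CPM and the other 6 had at most 3.71 CPM. The running LCR rats were likewise apart, with 21.7 and 13.9 CPM in replicates 2 and 5 and at most 1.72 CPM in the other 3. Uchl1, a ubiquitin hydrolase known chiefly from neurons, had 19.3, 31.7 and 51.0 CPM in HCR, against 5.33, 11.8 and 17.0 CPM in LCR, with no overlap (1.51, SE 0.24, adjusted p = 0.000353). These were 2 of 31 deubiquitinases tested (6.45%, beside 2.72% of all genes), whose median was -0.0049, and 0 fell. Schwann cell and nerve markers, whose part in the Uchl1 value was not tested, had 0 of 7 members called, a median of 0.77, and sums from 197 to 386 CPM in HCR, against 158 to 250.6 CPM in LCR.

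The muscle ring-finger ligases Trim54 and Trim55, which sit on the sarcomere, were both lower in HCR. Trim54 had 260, 313 and 418 CPM in HCR, against 325, 391.7 and 469 CPM in LCR (log2 fold change -0.33, SE 0.09, adjusted p = 0.0284, edgeR; called in 20 of 26 refits without 1 library). Trim55 averaged 74.7 ± 12.3 CPM in HCR and 92.6 ± 5.77 CPM in LCR (-0.31, SE 0.09, adjusted p = 0.0433), and its call held in 7 of 12 other settings and 13 of 26 refits without 1 library. The classical atrophy ligases Trim63 (-0.14, adjusted p = 0.789) and Fbxo32 (-0.13, adjusted p = 0.648) did not pass. In all, 2 of 19 genes of that list were called (10.5%, beside 2.72% of all genes). Trim45, which shares with them only the wider tripartite motif (Trim) family, fell by 1.32 (SE 0.22, adjusted p = 0.000437). Of 31 genes of that wider family tested, 9.68% were called, beside 2.72% of all genes.

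Translation genes changed singly. Of 80 cytosolic ribosomal protein genes, Rpl10a and Rps28 rose and Rpl6 and Rpl19 fell in HCR (5% called, beside 2.72% of all genes). The list's median was -0.0099. Rpl10a had 95.6, 112 and 136 CPM in HCR, against 12.4, 18.5 and 85.8 CPM in LCR (log2 fold change 1.67, SE 0.31, adjusted p = 0.00291, edgeR). LCR replicates 1, 2 and 6 had 54.8 to 85.8 CPM and the other 5 had 12.4 to 19.7 CPM. A processed copy, Rpl10a-ps9, was higher in HCR too (0.84, SE 0.20, adjusted p = 0.0162) and was likewise higher in LCR replicates 1, 2 and 6, at 20.5 to 28.2 CPM, than in the other 5, at 9.63 to 16.6 CPM. Reads of the gene and its copy may be shared, so both values are uncertain. Ribosome makers outside the list moved in both directions. Gtpbp4, a nucleolar GTPase of the large subunit, had 21.0, 25.4 and 32.9 CPM in HCR, against 12.2, 15.2 and 17.3 CPM in LCR (0.79, SE 0.13, adjusted p = 0.000311). Riok1, a kinase that matures the small subunit, had 37.0, 40.7 and 57.6 CPM in HCR, against 49.95, 75.2 and 80.9 CPM in LCR (-0.70, SE 0.11, adjusted p = 9.65e-05).

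**Figure D3:**
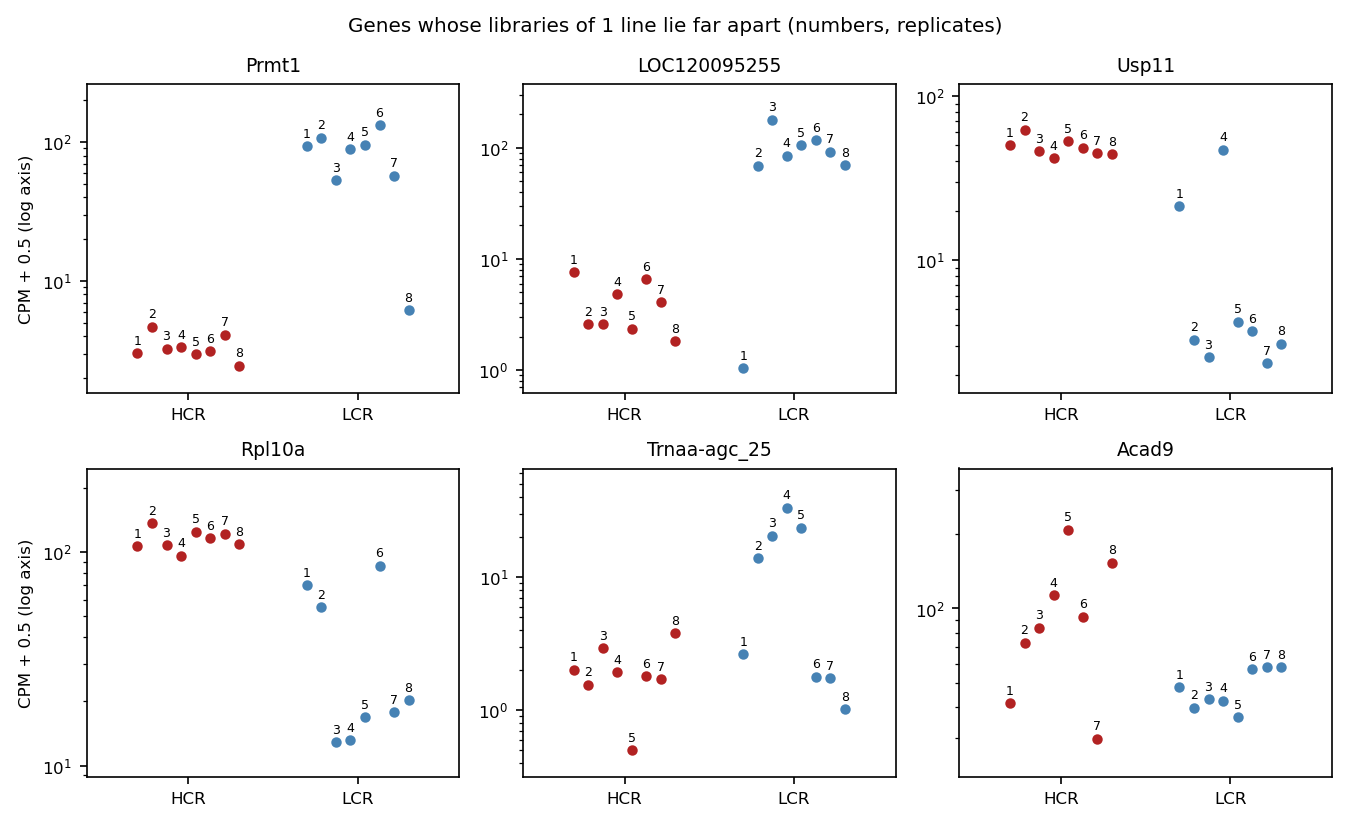
CPM plus 0.5, on log axes, of 6 genes in HCR (red, left) and LCR (blue, right) libraries, with replicate numbers. In Prmt1, LOC120095255, Usp11, Rpl10a and Trnaa-agc_25 the LCR libraries fall in far-apart sets with different members, while in Acad9 the HCR libraries spread from 29.4 to 207 CPM without such a gap.

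In several of the genes just described 1 line was uniform and the other was not, and the libraries that stood apart differed from gene to gene. LCR replicate 8 stood apart in Prmt1, replicate 1 in LOC120095255 (0.535 CPM, against 68.7 to 179 CPM in the other 7), replicates 1 and 4 in Usp11, and replicates 1, 2 and 6 in Rpl10a. The transfer RNA gene Trnaa-agc_25 had 13.3 to 32.7 CPM in LCR replicates 2, 3, 4 and 5 and 0.518 to 2.14 CPM in the other 4, against 0 to 3.27 CPM in HCR. Whether reads counted at this gene came from the transfer RNA or from another transcript there was not tested. Genes were screened for a gap of at least 2 on the log2 scale with at least 2 libraries on each side, and among the 274 called genes 2 had such a gap in LCR, Usp11 and Trnaa-agc_25, and 0 had one in HCR. LOC120095255, uncharacterised, fell by 4.60 on the log2 scale (SE 0.79, adjusted p = 0.00174, edgeR) and Trnaa-agc_25 by 2.86 (SE 0.69, adjusted p = 0.0242). Both lost their call under voom with quality weights, with adjusted p of 0.282 and 0.318.

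Contractile and membrane genes of muscle differed in part. C2h4orf3, whose human counterpart encodes a small membrane protein that inhibits the calcium pump SERCA, had 34.9, 73.2 and 80.4 CPM in HCR, against 23.4, 33.0 and 36.3 CPM in LCR (log2 fold change 1.09, SE 0.13, adjusted p = 1.59e-06, edgeR). Of the HCR libraries, 7 lay at 65.4 CPM or above, and HCR replicate 1 lay within the LCR range. Ryr3, a calcium release channel of lesser abundance than the main muscle form, had 42.0, 55.1 and 57.6 CPM in HCR, against 68.0, 104 and 125 CPM in LCR (-0.95, SE 0.11, adjusted p = 1.12e-06). No library overlapped in Ryr3, while Ryr1, the main form, averaged 2063 ± 401 CPM in HCR and 2422 ± 253 CPM in LCR (-0.23, adjusted p = 0.294).

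Of 37 excitation-contraction and ion channel genes, 2 rose and 2 fell in HCR (10.8% called, beside 2.72% of all genes). The voltage-gated potassium channel Kcnq1 had 3.54, 9.77 and 17.6 CPM in HCR, against 1.07, 3.78 and 5.503 CPM in LCR (log2 fold change 1.43, SE 0.29, adjusted p = 0.00362, edgeR). Kcnk2, a background channel opened by stretch and lipids, had 5.57, 11.6 and 20.7 CPM in HCR, against 1.56, 4.08 and 5.57 CPM in LCR, just without overlap (1.67, SE 0.31, adjusted p = 0.00151). The inward rectifier Kcnj2, which helps to set the resting potential of muscle, averaged lower in HCR and fell by 0.57 (SE 0.12, adjusted p = 0.00467). Colq, the collagen tail that holds acetylcholinesterase at the nerve-muscle synapse, had 64.5, 79.0 and 91.4 CPM in HCR, against 83.5, 119 and 142 CPM in LCR (-0.55, SE 0.10, adjusted p = 0.000848), and was the 1 called member of 19 denervation and synapse genes.

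Fast-fibre transcripts tended to lower levels in HCR without passing the main test. Of 19 fast-fibre sarcomere genes 0 were called, and the median was -0.36. The fast troponin Tnni2 had 51.4, 346 and 505 CPM in HCR, against 363, 701 and 1037 CPM in LCR (log2 fold change -1.11, SE 0.33, adjusted p = 0.0764, edgeR), and the oxidative fast myosin Myh2 had 338, 1500 and 2895 CPM in HCR, against 918, 2707 and 4786 CPM in LCR (-1.08, SE 0.44, adjusted p = 0.206). The faster myosins stood near 0, Myh1 at 0.07 (SE 0.58) and Myh4 at -0.11 (SE 0.59), and both changed sign when single libraries were left out. Summed fast-fibre levels had a lowest, median and highest of 6541, 10985 and 14688 CPM in HCR, against 13026, 15976 and 19763 CPM in LCR. The lack of a call depended on the method: Tnni2 was called with DESeq2, voom and dispersion not robust, and Myh2 with voom. Between the running lines 4 of the 19 genes were called, Tnni2 at -2.51 (adjusted p = 0.006, edgeR) and Myh2 at -2.86 (0.0206) among them. Without the 2 runners whose titles conflict, described below, these adjusted p were 0.051 and 0.0938. In such bulk samples fewer fibres or cells of a type and less RNA per cell cannot be told apart.

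Vessel, matrix and immune genes gave few calls. Angpt2, which loosens vessel walls for remodelling, had 5.00, 6.13 and 9.999 CPM in HCR, against 1.56, 2.99 and 6.19 CPM in LCR (log2 fold change 1.00, SE 0.27, adjusted p = 0.0361, edgeR; called in 18 of 26 refits without 1 library), and was the 1 called member of 10 angiogenic factors. Vegfa stood at -0.002 (SE 0.13), and 0 of 19 endothelial markers passed. Of 34 collagen and matrix genes, 5.88% were called, beside 2.72% of all genes. The collagen chaperone Serpinh1 rose (0.52, SE 0.13, adjusted p = 0.0244) and elastin, Eln, fell (-0.72, SE 0.19, adjusted p = 0.0336). Each was called in 20 of 26 refits without 1 library, and Eln in 9 of 12 other settings.

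Folr2, a folate receptor of resident macrophages, had 14.8, 20.6 and 28.5 CPM in HCR, against 10.7, 12.0 and 16.6 CPM in LCR (log2 fold change 0.73, SE 0.15, adjusted p = 0.00509, edgeR). Spp1, osteopontin, had 6.53, 16.5 and 51.1 CPM in HCR, against 2.67, 5.08 and 11.8 CPM in LCR (1.56, SE 0.39, adjusted p = 0.0319), with 1 high library, HCR replicate 1. Its call held in 9 of 12 other settings and 20 of 26 refits without 1 library. Folr2 and Spp1 were the 2 called of 17 macrophage markers (11.8%, beside 2.72% of all genes). Sums of these markers ran from 456 to 737 CPM in HCR, against 354 to 549 CPM in LCR. The list's median was 0.22, with 14 members above 0 and 3 below. The macrophage markers Cd68 (0.64, adjusted p = 0.0503) and C1qa (0.46, adjusted p = 0.0547) did not pass. Neither did C1qc (0.33), Mrc1 (0.22), C1qb (0.22), Cd163 (0.20) and Csf1r (0.14), with adjusted p from 0.276 to 0.780 (edgeR). Gbp1, an interferon-induced GTPase, had 0.619, 3.79 and 14.99 CPM in HCR, against 10.9, 29.0 and 64.3 CPM in LCR (-2.49, SE 0.47, adjusted p = 0.00374), and the other 19 interferon genes tested did not pass. Ackr4, described above, was the 1 called member of 13 chemokine and receptor genes.

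**Figure D4:**
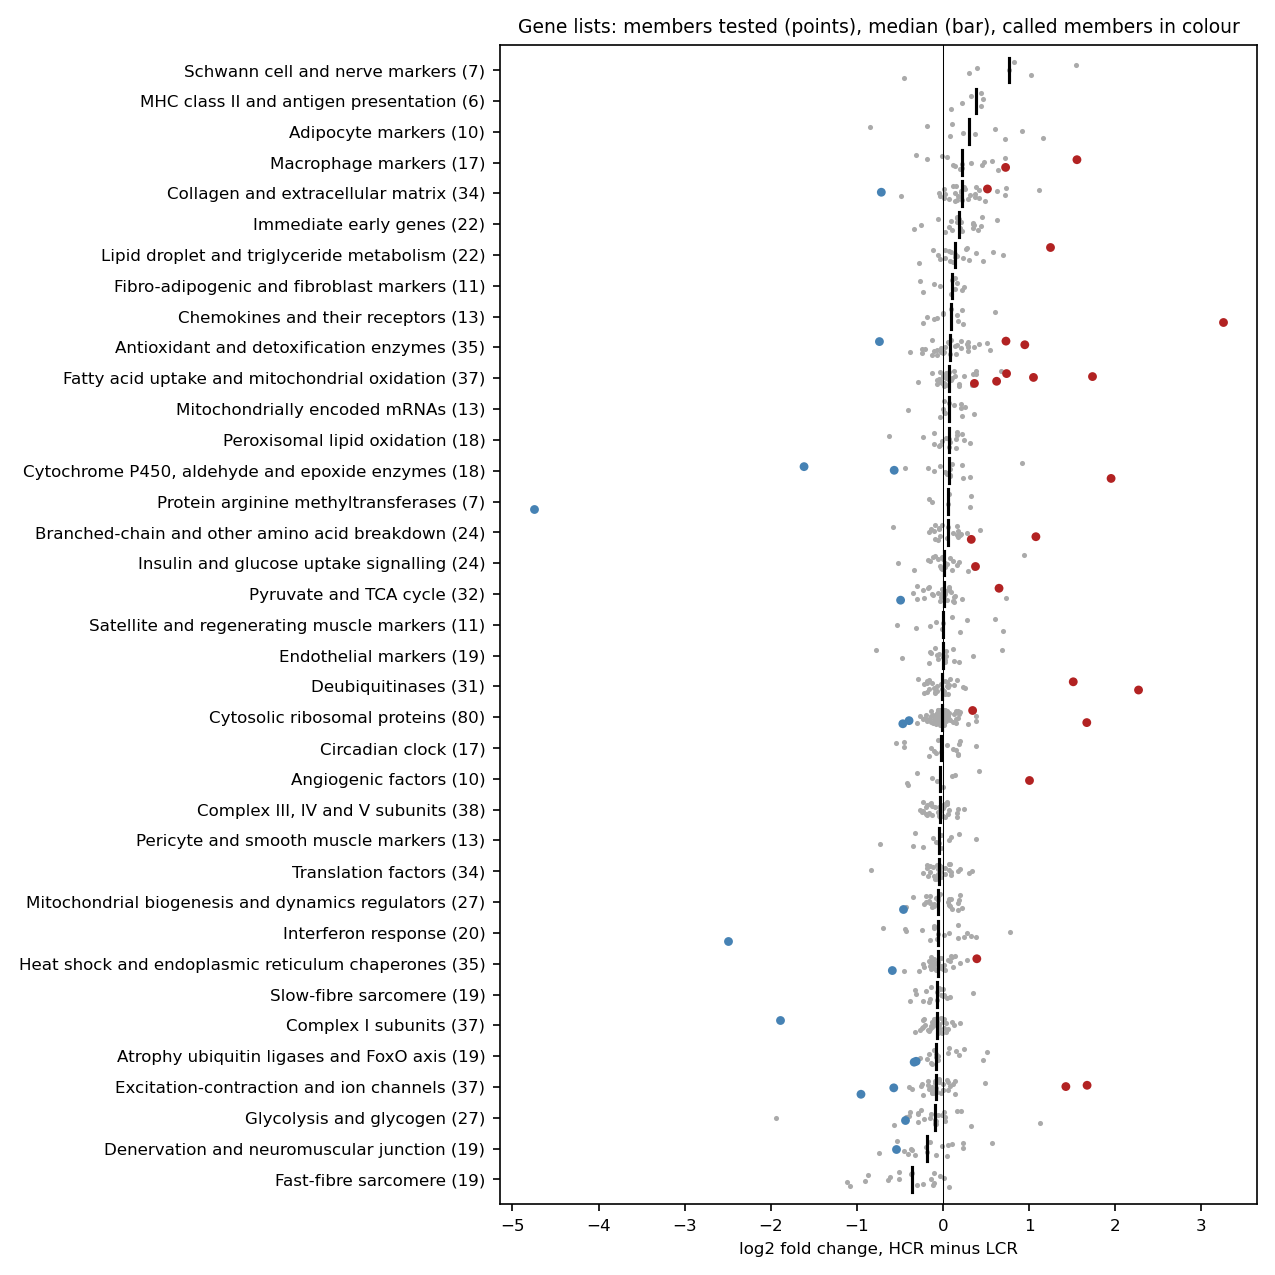
Log2 fold change (HCR minus LCR) of each tested member of 37 gene lists, with the number tested in brackets, the median as a black bar, and called members in red (higher in HCR) or blue (lower). Medians run from -0.36 for fast-fibre sarcomere genes to 0.77 for Schwann cell and nerve markers, 2 lists with 0 called members, and fatty acid genes hold 5 called members, all higher.

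Called genes sat beside one another in several places. Positions are taken as gene order in GRCr8 for the 264 called genes found there, since the counts were made on another assembly. Of these, 22.3% had another called gene within 3 tested neighbours, beside 14.2% of genes that were not called. Among them 16 pairs of called genes were direct neighbours, 7 both higher, 4 both lower and 5 opposed, and only 2 pairs had overlapping spans, Acad11 with Ackr4 and Mrpl14 with Tmem63b.

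Runs of at least 3 called genes numbered 4. The one with the most called genes was on chromosome 5, where 4 of 5 tested neighbours were called, in opposite directions. LOC102550339, uncharacterised, had 10.8, 15.2 and 22.8 CPM in HCR, against 0, 0 and 0.688 CPM in LCR (log2 fold change 6.18, SE 0.47, adjusted p = 3.31e-11, edgeR). Its neighbour LOC120102924 fell by 1.72 (SE 0.26, adjusted p = 9.65e-05), and Hook1, an adaptor that links cargo to microtubules, had 0.714, 2.58 and 3.15 CPM in HCR, against 4.15, 7.22 and 8.90 CPM in LCR, with no overlap (-1.62, SE 0.28, adjusted p = 0.000645). Cyp2j4, described above, ends the run and was higher. The gene between, Fggy, was not called. A pair of runs lay on chromosome 2. In the first, Pik3r1, a regulatory subunit of phosphoinositide kinase in insulin signalling, was higher (0.38, SE 0.08, adjusted p = 0.00554), and its neighbours Mast4 (-0.61, SE 0.16) and Srek1 (-0.29, SE 0.08) were lower. In the second, Vtcn1 (-0.72, SE 0.19) and Trim45 (-1.32, SE 0.22) were lower and Ptgfrn (0.67, SE 0.15) was higher. Mast4 and Srek1 were each called in 19 of 26 refits without 1 library and Vtcn1 in 20. The run on chromosome 13 spanned 6 tested genes, of which Aida (0.41, SE 0.11, adjusted p = 0.0389) and Taf1a (0.76, SE 0.21, adjusted p = 0.0431) were higher and Mtarc1, described above, was lower. A pair outside these runs was Pagr1, a partner of histone methyltransferase complexes, at 98.3 ± 18.5 CPM in HCR and 58.1 ± 7.39 CPM in LCR (0.76, SE 0.12, adjusted p = 0.00012), beside Mvp, the vault protein, at 50.9 ± 8.75 CPM in HCR and 27.7 ± 6.25 CPM in LCR (0.87, SE 0.15, adjusted p = 0.000574). No sequence of the lines was examined, so whether counts at such genes differ through transcript level or through a sequence difference at the counted 3' end was not tested.

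A set of 4 genes was close to absent in 1 line, all without a full symbol. LOC102550339 had 232 counts over the 8 HCR libraries and 2 over the 8 LCR libraries, a ratio of 113 (95% exact binomial interval 30.9 to 936, counting error only). LOC102555790 had 173 counts in HCR and 2 in LCR, a ratio of 84.1 (22.9 to 700). In the other direction RGD1560124 had 3 counts in HCR and 146 in LCR, an LCR to HCR ratio of 50.1 (16.8 to 246), and LOC108349628 had 2 in HCR and 77 in LCR, a ratio of 39.6 (10.6 to 333). All 4 had no overlap between the lines, and 22 of the 274 called genes (8.03%) carried no full symbol, beside 4.48% of genes tested.

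Further genes with the largest or clearest differences were of varied kinds. Mycbpap, a Myc-binding protein partner known from testis, had 3.45, 6.42 and 16.7 CPM in HCR, against 0.619, 2.11 and 2.68 CPM in LCR, with no overlap (log2 fold change 1.92, SE 0.42, adjusted p = 0.0071, edgeR). Zfp136, a zinc finger gene, had 4.28, 7.00 and 9.31 CPM in HCR, against 0.518, 2.39 and 3.33 CPM in LCR (1.66, SE 0.30, adjusted p = 0.00087). Both were low transcripts. Wdr72 (-2.16, SE 0.42), Sbsn (-1.86, SE 0.31), Mns1, a protein of cilia and sperm tails (-1.30, SE 0.21), and the cell-cycle factor E2f2 (-1.44, SE 0.40) fell. The call of E2f2, with an adjusted p of 0.0471, held in 9 of 26 refits without 1 library. Rpap3, a cochaperone that helps to assemble RNA polymerase, had 41.5, 47.8 and 57.2 CPM in HCR, against 63.3, 70.6 and 82.6 CPM in LCR, with no overlap (-0.55, SE 0.09, adjusted p = 0.000131). Of 35 chaperones, 5.71% were called, beside 2.72% of all genes. Pdia6, a disulfide isomerase of the endoplasmic reticulum, rose (0.39, SE 0.11, called in 18 of 26 refits without 1 library) and Hspa2 fell (-0.59, SE 0.12).

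The running rats share no library with the sedentary ones, so their line difference is a separate measurement, made in rats that had a wheel. Of the 274 genes, 249 (90.9%) had the same sign in running HCR against running LCR, beside 58.2% of all genes, and 39 were called there in the same direction, of 64 called in all (0.636%). The 5 HCR and 5 LCR runners did not overlap in 1.91% of genes tested, and 13 of the 61 genes above that separated the sedentary lines also separated the running lines in the same direction. The titles of 2 running libraries name the other line than their descriptions do. They are HCR replicate 5 and LCR replicate 5, and the genes that were close to absent in 1 sedentary line had levels there that go with the descriptions. LOC102550339 had 26.3 CPM in HCR replicate 5 and 0.871 CPM in LCR replicate 5, and LOC102555790 had 18.2 CPM in HCR replicate 5 and 0 CPM in LCR replicate 5. RGD1560124 had 0 CPM in HCR replicate 5 and 3.49 CPM in LCR replicate 5, and LOC108349628 had 0 CPM in HCR replicate 5 and 10.5 CPM in LCR replicate 5. Among the other 4 HCR runners, replicate 4 had 0 CPM of LOC102555790, against 4.21 CPM or more in the other 3. Without those 2 libraries, 4 HCR and 4 LCR runners were left, 252 genes kept the sign, and 22 were called in the same direction. With the lines that the titles name, edgeR called 0 genes between the runners (520 at an unadjusted p under 0.05). Ackr4 stood at 2.72 in runners (adjusted p = 0.00556, edgeR; 2.51 and 0.0497 without the 2 libraries), Acad11 at 1.70 (0.00337; 1.498 and 0.0325), Cyp2j4 at 2.32 (0.00115; 2.51 and 0.00382) and C2h4orf3 at 1.45 (2.20e-06; 1.29 and 0.000146). Other genes had values near 0 in runners, such as Spp1 (0.08), Serpinh1 (-0.01) and Ptgfrn (-0.07), and Eln had the other sign (0.28), but the difference between sedentary and running contrasts was not tested.

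**Figure D5:**
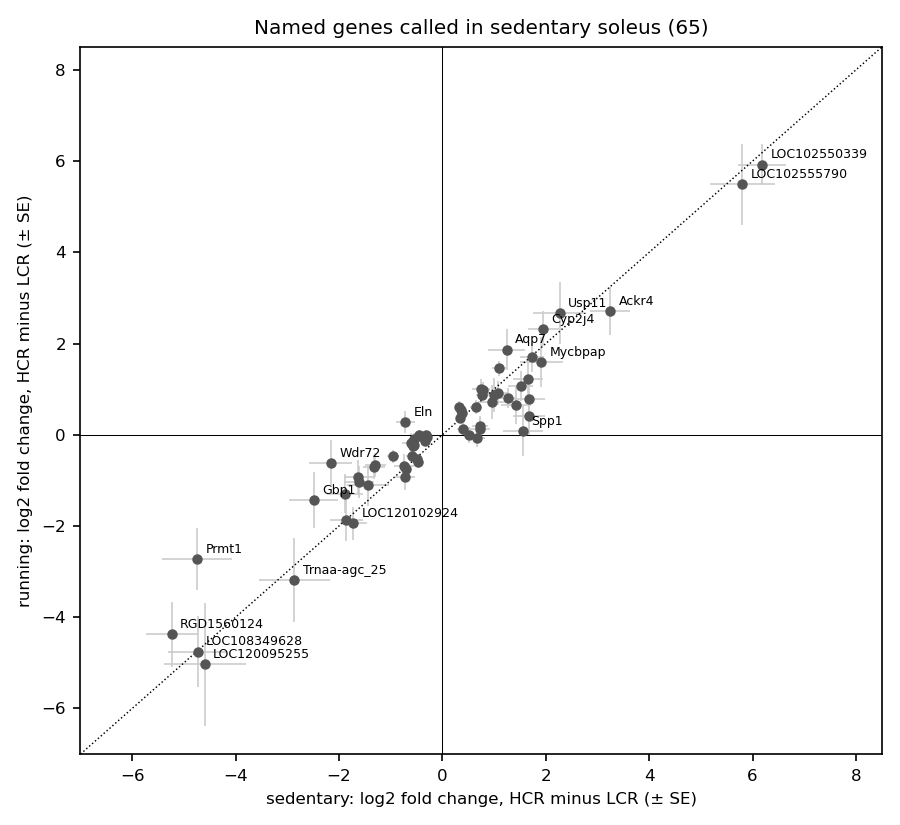
Log2 fold change (HCR minus LCR, ± SE) of the 65 named genes called in sedentary rats, on the horizontal axis, against the same in running rats, on the vertical axis, with equality dotted. LOC102550339, LOC102555790, Ackr4 and the near-absent genes lie near the line, Spp1 lies near 0 in runners, and Prmt1 stands at -2.72 there against -4.75 in sedentary rats.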

How the data were processed

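Soleus transcripts of aged female rats were counted in 26 libraries, of which the 16 sedentary ones are the subject. Per the labels' protocols, the kit used oligo(dT) priming, giving single-end reads close to 3' ends of mRNAs. The authors' deposited table holds raw, whole-number counts per gene for 34034 genes, with 0 columns of no sample. The submitters' processing notes name UMI-tools, cutadapt, STAR and featureCounts and the assembly mRatBN7.2. Collapsing of molecular identifiers and use of strand are both not given in the sources used. Total counts per library are given with the results, and intervals cover counting error only. No pair of libraries of a group agreed within sampling noise in a chi-square comparison (lowest statistic per degree of freedom 2.26).

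Groups came from the descriptions. The test was that of edgeR 4.0.16 under R 4.3.3 (quasi-likelihood F test, robust, TMM factors, filterByExpr, Benjamini-Hochberg at 0.05) in 1 fit of all 26 libraries with 1 mean per group, over 10064 genes. Biological variation (coefficient) came to 0.156. An SE is the size of a log2 fold change over the root of its F value. On simulated counts with 200 changed genes, the sedentary comparison recovered 63% of genes changed 1.5-fold and 84% of those changed 2-fold over 9912 genes, with 4 false among 151 calls. Alternatives used DESeq2 1.42.0, limma 3.58.1 voom, other scalings, filters and sample sets. Gene order and promoter sequences come from RefSeq on GRCr8, in which 57 of 75 named genes have a promoter window, and no coordinate was converted.

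The members and the 39 gene lists were chosen with earlier results of these data known, so the lists are described by counts and medians and not tested. Of the 75 named genes, 65 were called. They are, among called genes with a full symbol whose mean log2 CPM reaches 2, the 8 largest and the 8 clearest in each direction, then up to 3 called members of each list, 10 standard muscle genes whatever their p, up to 2 in each direction without a full symbol, up to 4 near 0 in 1 line, up to 4 with the largest gap within a line, and the members of up to 3 runs of neighbours. Other genes were named after their values were seen. Some results are not reported here.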

Additional observations from a re-analysis of the deposited data

Results flagged for a closer look

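Of 150 sets of 8 values examined (75 named genes in each sedentary line), 13 (8.67%) held a highest or lowest library whose gap to the next was over 0.526 of the range. Chance alone flags about 1 in 20 sets of normally distributed values. CPM values are skewed, and some genes were named for a gap or for values near 0 in 1 line, so the share cannot be compared with that rate. LCR replicate 5 accounts for 3 of the 13. Usp11 was highest in LCR replicate 4, at 46.6 CPM, against 1.86 to 20.9 CPM in the other 7 LCR libraries. C2h4orf3 was lowest in HCR replicate 1, at 34.9 CPM, against 65.4 to 80.4 CPM in the other 7 HCR libraries. C2h4orf3 was lowest in LCR replicate 3, at 23.4 CPM, against 31.3 to 36.3 CPM in the other 7 LCR libraries. Hmox1 was highest in LCR replicate 2, at 24.4 CPM, against 12.2 to 16.1 CPM in the other 7 LCR libraries. Trim54 was highest in HCR replicate 5, at 418 CPM, against 260 to 334 CPM in the other 7 HCR libraries. Rps28 was highest in HCR replicate 5, at 464 CPM, against 347 to 397 CPM in the other 7 HCR libraries. Acsl1 was lowest in LCR replicate 5, at 149 CPM, against 187 to 211 CPM in the other 7 LCR libraries. Spp1 was highest in HCR replicate 1, at 51.1 CPM, against 6.53 to 23.1 CPM in the other 7 HCR libraries. Cpt1b was lowest in LCR replicate 5, at 278 CPM, against 409 to 496 CPM in the other 7 LCR libraries. LOC102555790 was highest in LCR replicate 5, at 0.741 CPM, while the other 7 LCR libraries had 0 CPM. RGD1560124 was highest in LCR replicate 8, at 21.8 CPM, against 4.99 to 10.7 CPM in the other 7 LCR libraries. LOC108349628 was highest in HCR replicate 8, at 1.31 CPM, while the other 7 HCR libraries had 0 CPM. Vtcn1 was highest in HCR replicate 4, at 19.3 CPM, against 7.2 to 12.6 CPM in the other 7 HCR libraries.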

How the results depend on the processing

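The 274 sedentary calls became 278 with DESeq2 size factors, 273 with upper-quartile factors, 278 without mitochondrially encoded genes, 265 with no filter, 261 with a filter at 1 CPM, 325 with DESeq2, 362 with voom, 288 without robust dispersion, 223 with the 16 libraries alone, 276 without the 2 runners whose titles conflict and 227 with the titles' lines. Similar totals hid some turnover of genes. Of the 274, 211 were called again with no filter, 235 with the filter at 1 CPM and 194 with the 16 libraries alone. DESeq2 called 265 of them and voom 256. Refits without 1 library gave 182 (without LCR sedentary replicate 7) to 347. Of 65 named genes called, 43 kept their call in every alternative and every refit without 1 library that gave them an adjusted p. Some of these, such as Prmt1 and Cyp2j4, had an adjusted p in only 11 of 12 other settings. Sbsn had one in 25 and LOC108349628 in 24 of 26 refits. The 64 running calls became 35 with those 2 groups alone, 35 without the 2 runners, 0 in edgeR with the titles' lines (520 at an unadjusted p under 0.05), and 32 to 67 in refits without 1 library (32 without HCR running replicate 3, 41 without LCR running replicate 3). The 61 genes without overlap became 50 with library sizes alone. Of 1130 recomputed list medians, 0 moved by as much as the spread between replicates (1 SD of the list's mean log2 CPM within a line). Leaving out 1 library shifts a group mean by only a part of that SD, so this count could hardly differ from 0 and does not measure stability. The median of all genes lay between 0.0029 and 0.018 under the 3 scalings.

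Replicate numbers of the lines were examined for pairing, and only 1 of 8 same-numbered pairs had a correlation above 0.1 (range -0.088 to 0.256). The rats were therefore treated as unpaired. Such correlations cannot exclude a litter, cage or day shared by rats of the same number, and the labels do not say what a number marks. A replicate block gave 253 calls, 221 of them shared. The signs of genes near 0 moved. Myh1 stood at -0.12 with the replicate block and between -0.30 and 0.30 without 1 library, Myh4 between -0.38 and 0.12, and Cpt1b between -0.11 and 0.0121. Vegfa stood at 0.0102 with upper-quartile factors, 0.0168 with voom and 0.0017 with the 16 libraries alone, and between -0.0583 and 0.0697 without 1 library. At about 2 counts per CPM and library, differences of transcripts of a few CPM are measured only when large.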

Other observations

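Groups of called genes outside the lists, put together here after their values were seen and therefore only described, extend the picture. The 4 linker histones tested split, H1f0 higher in HCR at 117, 136 and 168 CPM (lowest, median, highest), against 79.3, 93.2 and 122 CPM in LCR (log2 fold change 0.54, SE 0.10, adjusted p = 0.000851, edgeR), and H1f2 (-0.67, SE 0.17, adjusted p = 0.0311) and H1f4 (-0.74, SE 0.18, adjusted p = 0.0216) lower. The imprinted genes H19, Meg3 and Zdbf2 were lower in HCR. H19, an abundant imprinted RNA of muscle, had 1017, 1831 and 2224 CPM in HCR, against 1721, 2837 and 3383 CPM in LCR (-0.62, SE 0.17, adjusted p = 0.0431), Meg3 stood at -1.16 (SE 0.31, adjusted p = 0.0433) and Zdbf2 at -0.93 (SE 0.20, adjusted p = 0.00684). Mylk3, a kinase of cardiac myosin light chains, was higher at 16.8, 22.8 and 45.1 CPM in HCR, against 5.33, 10.7 and 14.99 CPM in LCR (1.28, SE 0.26, adjusted p = 0.00538), while Lmod3, a leiomodin that nucleates thin filaments, was lower at 432, 554 and 654 CPM in HCR, against 657, 715 and 805 CPM in LCR (-0.39, SE 0.08, adjusted p = 0.00538).

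Some called genes of immune function, which form no list, moved in both directions. The lectins Clec10a (log2 fold change 0.81, SE 0.14) and Asgr2 (0.85, SE 0.20), which are adjacent genes, were higher in HCR, as were Ms4a4a (0.89, SE 0.18) and Alox5ap (1.00, SE 0.25), the partner of the leukotriene-forming lipoxygenase. Slfn4 (-1.02, SE 0.28), Tnfaip2 (-1.01, SE 0.22) and Pml (-0.93, SE 0.23) were lower, while 19 of the 20 genes of the interferon list did not pass. In lipid handling outside oxidation, Acaca, which makes malonyl-CoA, was lower (-0.76, SE 0.17), and Lipa, the lysosomal lipase (0.51, SE 0.13), Npc2, which carries cholesterol out of lysosomes (0.46, SE 0.09), and Srebf2, which drives sterol synthesis (0.47, SE 0.12), were higher.

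Some genes of muscle innervation varied far more between rats of 1 line than between the lines. The 19 denervation and synapse genes had a median standard deviation on the log2 scale of 0.51 among HCR libraries and 0.64 among LCR libraries, beside 0.26 in each line for the 10060 genes whose mean log2 CPM reached 2. Those genes were not matched for level. Some of the 19 were low, such as Rapsn at medians of 3.73 CPM in HCR and 3.27 CPM in LCR. The part of counting error in their spread was not tested. Chrng, the embryonic receptor subunit, had 5.23, 19.5 and 29.99 CPM in HCR and 2.06, 22.7 and 78.9 CPM in LCR. Runx1 had 231, 439 and 756 CPM in HCR and 139, 416 and 655 CPM in LCR. The widest spread within both lines was that of Fam111a, at 0, 1.63 and 56.4 CPM in HCR and 0, 45.1 and 117 CPM in LCR (log2 fold change -1.81, SE 0.93, adjusted p = 0.347, edgeR).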
